A study of Rattus norvegicus with 6 samples.

Results

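The genes described here are 9 genes of the B lymphocyte lineage, Cd79a, Cd79b, Ms4a1, Pax5, Vpreb1, Igll1, Rag1, Rag2 and Dntt. They were chosen by name, each matched 1 row of the deposited table of 30562 genes, and all 9 passed the filter on low counts that left 15042 genes for testing. They were measured in bulk RNA of tail discs from wild-type male Sprague-Dawley rats, aged 12 weeks by the study's methods, whose discs had all been punctured with a needle. In 3 libraries the discs had received PBS, the vehicle. In the other 3, which carry the label AF-PTK@LEV@SPP1 and are called AF-PTK replicates 1 to 3, they had received, from 24 h after surgery, 10 μL of a fused liposome and bacterial vesicle that bears a peptide for the annulus fibrosus and carries an siRNA against Spp1 at 1 mg/kg. The methods describe an siRNA designed on the mouse gene, whole discs and 8 weeks of treatment, whereas the sample records name an untreated control, 14 days and macrophages sorted from mice. Disc matrix genes were abundant in all libraries, with a mean log2 CPM of 12.1 for Acan and 14.4 for Col2a1. Spp1, the target, was not reduced under the AF-PTK label, at 0.47 on the log2 scale against PBS (adjusted p = 0.317, quasi-likelihood test of edgeR).

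B lymphocytes are made in the bone marrow. Pro-B and pre-B cells cut and join the immunoglobulin gene segments with the recombinase of Rag1 and Rag2, and Dntt, terminal deoxynucleotidyl transferase, adds bases at the joints. Vpreb1 and Igll1 encode the surrogate light chain, which pairs with the first heavy chain until a true light chain exists. Rag1, Rag2 and Dntt are also used by thymocytes, whereas circulating mature B cells carry little of these 5 precursor transcripts. Cd79a and Cd79b, the signaling subunits of the B cell receptor, and Pax5, the factor that commits cells to the lineage, are present from the pro-B stage on, and Ms4a1 (CD20) marks the later stages. A disc holds few lymphocytes, and the vertebrae on either side of it contain marrow.

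Libraries held 15560728 to 17942989 counts, so that 3 counts, taken as the smallest measurable level, stood at 0.154 to 0.193 CPM (CPM denotes counts relative to library size, with library sizes adjusted by TMM). PBS replicates 2 and 3 were near-identical. Over 14393 genes their counts varied 1.33 times as much as counting noise, against 51.3 to 107 for the other pairs within a group, although the methods describe separate animals. They were counted as 1 sample in means and exact tests, which leaves n = 2 in PBS and n = 3 in the other group, and are called the PBS pair. Values are therefore listed library by library. In tissue RNA, fewer cells of a type and less RNA per cell cannot be told apart.

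The first bases of a gene's control region are shown for 3 of the 9 genes, as a description of genes of 1 lineage. They are 1 of each kind (a receptor subunit, a surrogate light chain gene and a recombinase). The part of these sequences in the levels described below was not tested. RefSeq windows existed for 5 of the 9 genes, on the GRCr8 assembly. Each line is the 250 bases before the annotated start, 5′ to 3′ on the gene's strand, for Cd79a (chr1:89621210-89621459, plus strand), Igll1 (chr11:97642937-97643186, plus strand) and Rag1 (chr3:108383185-108383434, minus strand). Capitals mark E-box letters bound by E2A proteins (CAGGTG or its reverse complement CACCTG, and CAGCTG) and the Ikaros letters TGGGAA or TTCCCA.
Cd79a: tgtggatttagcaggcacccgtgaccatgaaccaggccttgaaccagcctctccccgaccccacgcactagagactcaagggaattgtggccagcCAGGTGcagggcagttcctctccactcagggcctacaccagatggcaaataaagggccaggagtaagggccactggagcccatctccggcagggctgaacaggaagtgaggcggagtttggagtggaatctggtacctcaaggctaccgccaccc
Igll1: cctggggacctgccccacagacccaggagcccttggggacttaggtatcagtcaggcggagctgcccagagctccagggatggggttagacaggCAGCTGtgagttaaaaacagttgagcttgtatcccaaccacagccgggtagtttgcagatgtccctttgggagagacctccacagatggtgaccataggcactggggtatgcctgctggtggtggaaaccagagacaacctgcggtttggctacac
Rag1: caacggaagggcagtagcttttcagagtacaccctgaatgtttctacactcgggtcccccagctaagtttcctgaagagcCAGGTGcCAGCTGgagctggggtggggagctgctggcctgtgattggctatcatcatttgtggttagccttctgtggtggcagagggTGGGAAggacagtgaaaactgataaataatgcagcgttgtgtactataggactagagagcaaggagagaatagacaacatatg

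CAGGTG began 155 bases before the start of Cd79a and 170 bases before that of Rag1, where CAGCTG followed at 163 bases and TGGGAA at 83 bases. CAGCTG lay 156 bases before the start of Igll1. In windows that also take in 50 bases after the start, CAGGTG on either strand was found in 3 of the 5 genes (Cd79a, Dntt and Rag1) and in 18.8% of 33469 promoters. CAGCTG was found in 2 (Rag1 and Igll1) and in 15.1% of promoters, and TGGGAA in 2 (Dntt and Rag1) and in 25.7%. The EBF1 core CCCNNGGGA (5.91% of promoters), the PU.1 letters GAGGAAGT (2.42%), the octamer ATTTGCAT (1.78%) and TATAAA (14.2%), each searched on both strands, were in none of the 5 windows. The window of Rag2, which is not shown, held none of the motifs searched. These letters are a description of the windows and not evidence of binding. Some of the motifs share letters (the E-box forms with each other, TGGGAA with the ends of CCCNNGGGA and GAGGAAGT), so their matches are not independent.

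Compared with PBS, in the AF-PTK-labelled libraries, all 9 genes had a positive fold change and none passed the test. The median of the 9 log2 fold changes was 1.70, against 0.05 for all genes tested. A gene was called where its adjusted p was under 0.05 and its log2 fold change went beyond 1 in either direction. By this rule the edgeR quasi-likelihood test called 0 of the 9 genes and 8.83% of all genes. At an unadjusted p under 0.05 there were 2 of the 9, Vpreb1 and Ms4a1, and 36.6% of all genes. DESeq2 called the same 2 of the 9 and 11.6% of all genes. Both fits count the PBS pair as 2 samples, and their p-values are too small to the extent that it is 1. For most of the 9 genes the libraries did not split by group. The PBS pair was below every other library for 8 of the 9 genes, PBS replicate 1 lay within the range of the AF-PTK-labelled libraries for 8, and all 9 were highest in AF-PTK replicate 3.

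**Figure D1:**
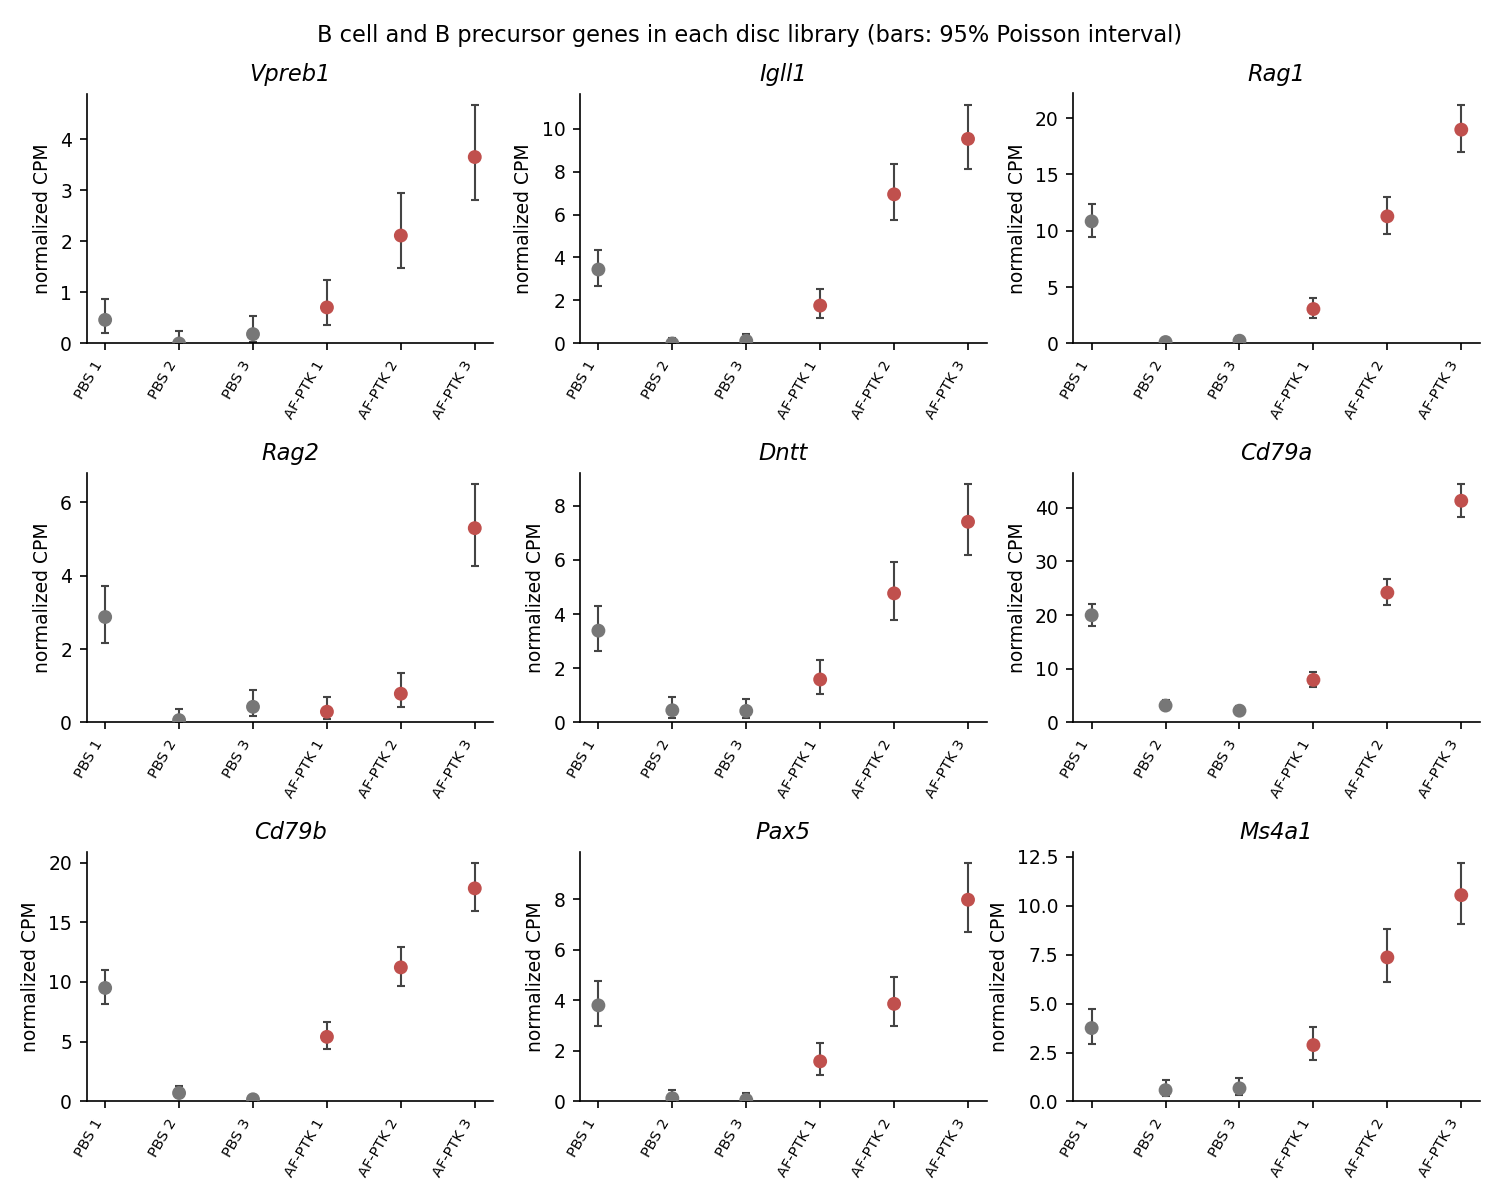
Normalized CPM of each of the 9 genes (y axis, linear from 0, scaled for each gene) in the 3 PBS libraries (grey) and the 3 AF-PTK-labelled libraries (red), with bars for the 95% Poisson interval of the count. For 8 of the 9 genes PBS replicate 1 sits among the red points and far above PBS replicates 2 and 3.

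Vpreb1, which encodes the variable-like chain of the surrogate light chain, was the only one of the 9 genes whose groups did not overlap. It lies on chromosome 11 from 84126969 to 84127846 in the coordinates of the deposited table. It had 9, 0 and 3 reads in PBS replicates 1, 2 and 3, or 0.462, 0 and 0.183 CPM, and 12, 35 and 64 reads, or 0.706, 2.11 and 3.65 CPM, in AF-PTK replicates 1, 2 and 3. The gap between the groups lay between PBS replicate 1 and AF-PTK replicate 1 and was small against the counting error of 9 and 12 reads, whose 95% Poisson intervals overlapped. The level was 0.277 ± 0.262 CPM (SD, n = 2) in PBS and 2.15 ± 1.47 (SD, n = 3) in the other group (two-sided exact permutation test, p = 0.200, the smallest that 2 samples against 3 can give in this test). Its log2 fold change of 3.22 (SE 0.97, 95% interval 0.87 to 5.56) had an adjusted p of 0.0663 in edgeR's quasi-likelihood test. Groups without overlap and higher in the AF-PTK-labelled libraries were seen for 21.6% of all genes tested.

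Igll1, the constant-like chain of the surrogate light chain, lies next to Vpreb1 on chromosome 11, from 84138910 to 84142216, and 11063 bases separate the genes. It had 67, 0 and 2 reads in PBS replicates 1 to 3, which is 3.44, 0 and 0.122 CPM. In AF-PTK replicates 1 to 3 it had 30, 115 and 167 reads, or 1.76, 6.94 and 9.52 CPM. PBS replicate 1 was above AF-PTK replicate 1, so the groups overlapped, while both libraries of the pair were under the floor of 3 counts. The log2 fold change was 2.30 (SE 1.36, edgeR adjusted p = 0.266).

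Rag1, the catalytic subunit of the recombinase, on chromosome 3 from 87917004 to 87928291, had 211, 2 and 4 reads in PBS replicates 1 to 3 and 52, 187 and 333 in AF-PTK replicates 1 to 3. In CPM this was 10.8, 0.129 and 0.244 against 3.06, 11.3 and 19.0. PBS replicate 1 was thus far above the pair and close to AF-PTK replicate 2. The mean of the AF-PTK-labelled libraries was 1.02 times PBS replicate 1. The log2 fold change was 1.54 (SE 1.42, edgeR adjusted p = 0.463).

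Rag2, the partner of Rag1, lies 5937 bases from it on the other strand, from 87902238 to 87911066. It differed from the other 8 genes in its order of libraries. It had 56, 1 and 7 reads in PBS replicates 1 to 3 and 5, 13 and 93 in AF-PTK replicates 1 to 3, or 2.88, 0.0643 and 0.427 CPM against 0.294, 0.784 and 5.30. Only PBS replicate 1 and AF-PTK replicate 3 were high, and AF-PTK replicate 1 was below PBS replicate 3. Its log2 fold change of 0.89 (SE 1.36, edgeR adjusted p = 0.666) was the smallest of the 9 and turned to -1.08 without AF-PTK replicate 3 (edgeR adjusted p = 0.645). Of the reads on the Rag1 and Rag2 genes together, Rag2 held 21.0% in PBS replicate 1 (95% exact binomial interval 16.2 to 26.4) and 21.8% in AF-PTK replicate 3 (18.0 to 26.1). In AF-PTK replicate 2 the share was 6.50% (3.51 to 10.9), so the 2 genes did not keep 1 ratio across the libraries beyond counting error. The annotated span of Rag2 overlaps Iftap on the opposite strand, the records name a stranded kit, and the use of strand in counting is not given in the sources used here, so reads of Iftap may be included.

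Dntt, on chromosome 1 from 239856391 to 239888282, had 66, 7 and 7 reads in PBS replicates 1 to 3 and 27, 79 and 130 in AF-PTK replicates 1 to 3. This is 3.39, 0.450 and 0.427 CPM against 1.59, 4.77 and 7.41. As for Igll1 and Rag1, PBS replicate 1 lay between AF-PTK replicates 1 and 2. The log2 fold change was 1.66 (SE 0.93, edgeR adjusted p = 0.249).

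Cd79a, the alpha signaling subunit of the B cell receptor, on chromosome 1 from 80493581 to 80497935, had 389, 49 and 36 reads in PBS replicates 1 to 3 and 135, 401 and 725 in AF-PTK replicates 1 to 3. In CPM it stood at 19.98, 3.15 and 2.20 against 7.94, 24.2 and 41.3. It was well above the floor in the pair, so its gap of 7.47 times between PBS replicate 1 and the pair rests on 36 reads or more in each library. Cd79b, the beta subunit on chromosome 10 from 91239356 to 91242625, had 185, 11 and 3 reads in PBS and 92, 186 and 313 in the other group, or 9.50, 0.708 and 0.183 CPM against 5.41, 11.2 and 17.8. Their log2 fold changes were 1.52 and 1.70 (edgeR adjusted p = 0.295 and 0.342). Cd79b held 30.2% to 40.5% of the reads of the pair of subunits in PBS replicate 1 and the 3 AF-PTK replicates, and 18.3% (9.52 to 30.4) and 7.69% (1.62 to 20.9) in PBS replicates 2 and 3, where the subunits together had 60 and 39 reads.

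Pax5, the lineage commitment factor on chromosome 5 from 58765036 to 58944326, had 74, 2 and 1 reads in PBS replicates 1 to 3 and 27, 64 and 140 in AF-PTK replicates 1 to 3. Its level was 3.80, 0.129 and 0.0611 CPM against 1.59, 3.86 and 7.98, with PBS replicate 1 next to AF-PTK replicate 2. The log2 fold change was 1.71 (SE 1.29, edgeR adjusted p = 0.375). Ms4a1, the CD20 surface protein on chromosome 1 from 207906374 to 207918512, had 73, 9 and 11 reads in PBS and 49, 122 and 185 in the other group. At 3.75, 0.579 and 0.672 CPM against 2.88, 7.36 and 10.5, AF-PTK replicate 1 was the only AF-PTK-labelled library below PBS replicate 1. Its log2 fold change of 2.03 (SE 0.83, 95% interval 0.02 to 4.04) had an adjusted p of 0.134 in edgeR.

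The calls turned on PBS replicate 1. Without it, PBS is represented by the near-identical pair alone, and edgeR called 8 of the 9 genes higher, with log2 fold changes of 3.19 (Cd79a) to 6.44 (Igll1) and adjusted p of 0.0155 to 0.0499. Rag2, at a log2 fold change of 3.06, did not pass (edgeR adjusted p = 0.199). In the same fit 13.1% of all genes were called and 7.37% were called higher. That fit treats 2 libraries that differ little beyond counting noise as separate samples, and its p-values are too small to that extent. With the pair summed as 1 sample and PBS replicate 1 kept, 0 of the 9 genes and 2.91% of all genes were called, and the log2 fold changes were 0.47 (Rag2) to 3.02 (Vpreb1). Leaving out AF-PTK replicate 1, the lowest of its group for all 9 genes, raised the log2 fold change of Vpreb1 to 3.60 (edgeR adjusted p = 0.0487), the only call among the 9 genes beside 9.2% of all genes. This fit too counts the pair as 2 samples. With the pair summed and every AF-PTK replicate kept, the edgeR adjusted p of Vpreb1 was 0.153.

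**Figure D2:**
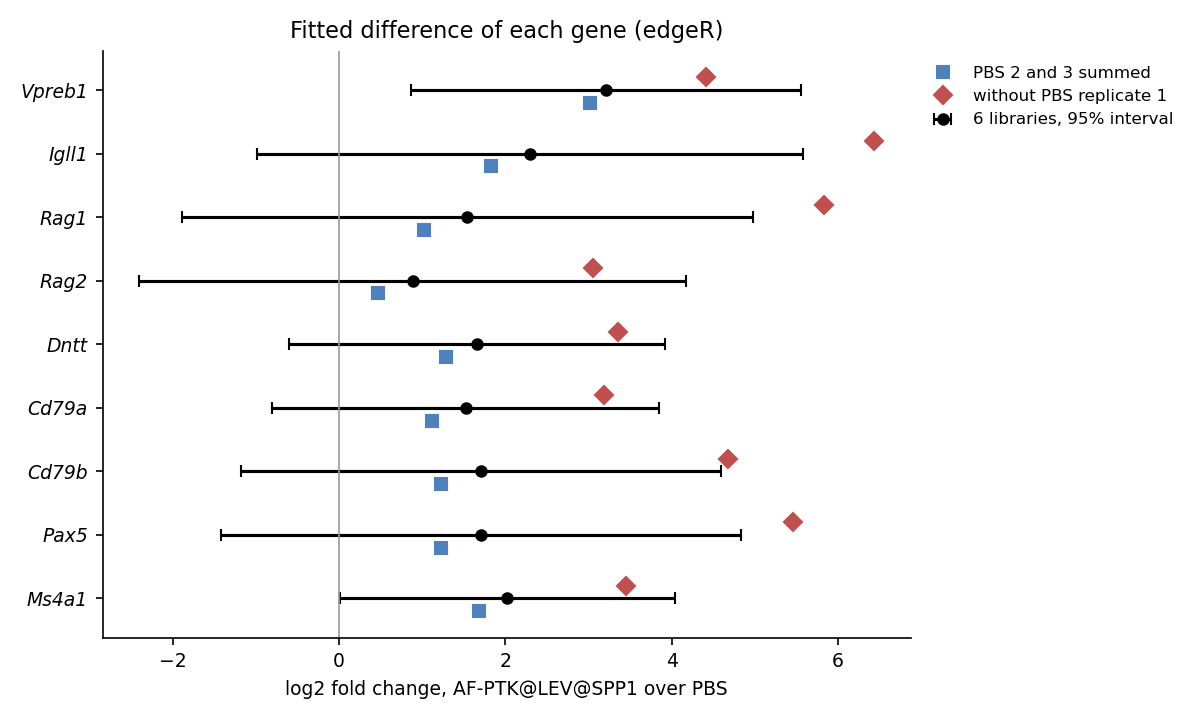
Log2 fold change of each gene (x axis), AF-PTK-labelled libraries over PBS, in edgeR fits of the 6 libraries (black, with 95% intervals), with PBS replicates 2 and 3 summed (blue squares) and without PBS replicate 1 (red diamonds). The intervals of 7 of the 9 genes include 0, and every estimate is larger without PBS replicate 1.

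The summed levels of the 5 precursor genes and of the 4 other genes were both lowest in the PBS pair and both highest in AF-PTK replicate 3. The 5 precursor genes (Vpreb1, Igll1, Rag1, Rag2 and Dntt) held 409 of the 1130 reads of the 9 genes in PBS replicate 1, a share of 36.2% (95% exact binomial interval 33.4 to 39.1). In AF-PTK replicates 1, 2 and 3 the share was 29.4% (25.1 to 33.9), 35.7% (33.0 to 38.5) and 36.6% (34.6 to 38.7), so that PBS replicate 1 was within counting error of replicates 2 and 3. In PBS replicates 2 and 3 only 81 and 74 reads fell on the 9 genes, with precursor shares of 12.3% (6.08 to 21.5) and 31.1% (20.8 to 42.9), and 33 of 155 reads or 21.3% (15.1 to 28.6) in the pair pooled, an interval below that of PBS replicate 1 and overlapping that of AF-PTK replicate 1. The low pooled share comes from PBS replicate 2, with 10 precursor reads. Against the pair, the sum of the 5 precursor genes was 20.5 times as high in PBS replicate 1 and 7.24, 25.3 and 43.8 times in AF-PTK replicates 1 to 3, and that of the 4 other genes 9.64, 4.64, 12.1 and 20.2 times. The precursor share of PBS replicate 1 lay within the range of the AF-PTK-labelled libraries. The summed level of the 9 genes was 58.0 CPM in PBS replicate 1, 5.21 and 4.52 in the pair, and 25.2, 72.5 and 122.5 in AF-PTK replicates 1 to 3. Reads of different genes in a share also reflect transcript length, which the table does not give, so a share is compared only between libraries.

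The share of the surrogate light chain was also read. Vpreb1 and Igll1 held 6.73% of the reads of the 9 genes in PBS replicate 1 (5.34 to 8.35), and 9.79% (7.15 to 13.0), 12.5% (10.7 to 14.5) and 10.7% (9.47 to 12.1) in AF-PTK replicates 1, 2 and 3. The intervals of PBS replicate 1 and of AF-PTK replicates 2 and 3 did not overlap, those of PBS replicate 1 and AF-PTK replicate 1 did, and 1 library stands on the PBS side of this difference. PBS replicate 2 had 0 of 81 reads (0 to 4.45), an interval below those of PBS replicate 1 and of each AF-PTK replicate. PBS replicate 3 had 6.76% (2.23 to 15.1), with too few reads to place it. Vpreb2, another surrogate light chain gene, stood at 0.925 CPM in PBS replicate 1, 0 and 0.0611 in the pair and 0.0588, 1.27 and 0.969 in AF-PTK replicates 1 to 3. Its log2 fold change was 1.12 (edgeR adjusted p = 0.568). Vpreb3, which binds nascent light chains in precursors, stood at 7.09 CPM in PBS replicate 1, 0.322 and 0.672 in the pair and 2.53, 6.27 and 10.8 in AF-PTK replicates 1 to 3.

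**Figure D3:**
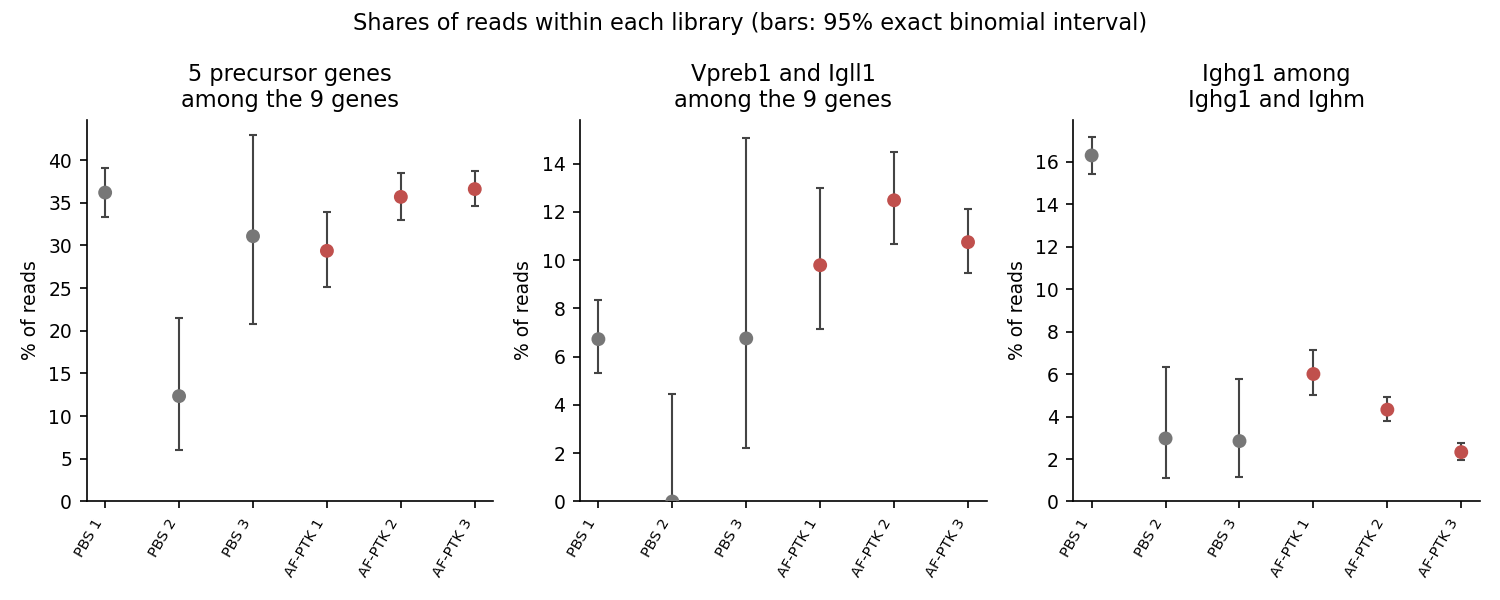
Percent of reads in each library (y axes, from 0) that the 5 precursor genes and Vpreb1 with Igll1 hold among the 9 genes, and that Ighg1 holds among Ighg1 and Ighm, with bars for the 95% exact binomial interval. PBS replicate 1 has 36.2%, 6.73% and 16.3%, and AF-PTK replicate 3 has 36.6%, 10.7% and 2.32%.

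Antibody genes were likewise low in the PBS pair, but unlike the 9 genes they were not highest in AF-PTK replicate 3. The row named Ighm, the heavy chain of the first antibody class, had 303 CPM in PBS replicate 1, 12.6 and 14.6 in the pair and 114, 300.2 and 287 in AF-PTK replicates 1 to 3 (log2 fold change 1.09, edgeR adjusted p = 0.557), although the table's own description of that row names another constant region. Jchain, which joins secreted IgM and IgA, stood at 194 CPM, then 10.8 and 10.4, against 122, 335 and 224. Ighg1, a switched class, was 59.0 CPM in PBS replicate 1 and at most 13.6 in every other library. Its share of the reads on Ighg1 and Ighm was 16.3% in PBS replicate 1 (15.4 to 17.2), 2.97% and 2.85% in the pair, and 6.0%, 4.33% and 2.32% in AF-PTK replicates 1 to 3. PBS replicate 1 thus had the highest Ighg1 share of the 6 libraries. The 38 immunoglobulin variable genes of the table had 1116 reads in PBS replicate 1, 20 and 23 in the pair, and 287, 783 and 517 in AF-PTK replicates 1 to 3. At least 10 reads were reached by 18 of them in PBS replicate 1, by 0 in either library of the pair and by 11, 20 and 14 in AF-PTK replicates 1 to 3, and such genes can share reads.

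Further genes of the lineage were read from a list. The list for the B cell surface and receptor signaling had 22 genes measured, all tested. None was called, beside 8.83% of all genes, with a median log2 fold change of 1.04 against 0.05 for all genes. Without PBS replicate 1, 12 were called higher, beside 7.37% of all genes, in the fit whose p-values are too small. Fcrl1, a surface receptor of B cells, stood at 13.2 CPM in PBS replicate 1, 0.450 and 0.427 in the pair and 8.53, 24.2 and 20.7 in AF-PTK replicates 1 to 3 (log2 fold change 1.90, edgeR adjusted p = 0.308). Of the list, 21 genes were above the pair in PBS replicate 1, and 15, 20 and 18 in AF-PTK replicates 1 to 3. Cd74, the invariant chain that macrophages also express, did not follow this order, at 179 CPM in PBS replicate 1 and 189 in both libraries of the pair.

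In the list of B precursor and early lineage factors, which includes Cd79a and Cd79b, 21 genes were tested. Of these 1 was called higher and 3 lower, beside 8.83% of all genes called, and the median was 0.66 on the log2 scale. Without PBS replicate 1, 6 were called higher and 3 lower, beside 13.1% of all genes called and with p-values that are too small. The 4 genes called in the fit of the 6 libraries are all used by other cells as well. Cd24, a surface protein also listed for the nucleus pulposus, rose by a log2 fold change of 2.08 (edgeR adjusted p = 0.0196). Sox4, Mme and Cd93, which stromal or endothelial cells also express, fell by 1.54, 1.25 and 1.15 on the log2 scale. With the PBS pair summed, Cd24 and Cd93 were not called (edgeR adjusted p = 0.0913 and 0.0581) and Sox4 and Mme were, beside 2.91% of all genes. Ebf1, which drives the B program and is also present in stromal and fat precursors, was near 33.0 to 42.4 CPM in all 6 libraries and did not follow the members (log2 fold change 0.16, edgeR adjusted p = 0.252). Myb, used by all early blood cells, ranged like the members, at 11.4 CPM in PBS replicate 1, 0.965 and 0.183 in the pair and 3.41, 29.4 and 36.9 in AF-PTK replicates 1 to 3 (edgeR adjusted p = 0.243). Il7r, the receptor for the cytokine on which B precursors depend and which T cells also carry, was 26.3, 20.8 and 19.5 CPM in PBS and 4.06, 11.6 and 12.5 in the other group (log2 fold change -1.25, edgeR adjusted p = 0.0803).

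T cell genes were read from a list of their own. Of 14 genes of the T cell and thymocyte list, 13 were tested, none was called higher and 5 were called lower (Cd3e, Cd3g, Cd2, Cd8a and Cd8b). Over all genes, 695 of 15042 were called lower. With the PBS pair summed, 3 of the list were called lower, beside 314 of 15537 over all genes, and Cd3e and Cd3g were not (edgeR adjusted p = 0.0800 and 0.123). The median log2 fold change was -0.18, and 8 of the 14 were above the pair in PBS replicate 1 and 4, 6 and 6 in AF-PTK replicates 1 to 3. Cd7, a surface protein of T and NK cells, was 3.03 CPM in PBS replicate 1, 1.16 and 0.427 in the pair and 1.18, 2.59 and 2.22 in the other group (edgeR adjusted p = 0.734). PBS replicate 2 and AF-PTK replicate 1 were thus level for Cd7, at 18 and 20 reads. The summed level of the 14 genes was 47.6 CPM in PBS replicate 1, 40.6 and 37.7 in the pair, and 25.1 to 33.1 in the other group. Ptcra, the chain that thymocytes use while Rag1 and Dntt are active, had at most 0.103 CPM, under the floor, in every library. Cd8b, the T cell coreceptor chain, was 1.34, 1.99 and 2.63 CPM in PBS and 0.294, 0.302 and 0.228 in AF-PTK replicates 1 to 3 (edgeR adjusted p = 0.00829).

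Genes of other cell types, of marrow and not of marrow, also differed between the PBS pair and the other libraries. All 6 measured genes of the granules of neutrophil precursors (Mpo, Elane, Prtn3, Ctsg, Ms4a3 and Cebpe) were above the pair in PBS replicate 1 and in each AF-PTK replicate. Their summed level was 85.4 CPM in PBS replicate 1, 2.25 and 3.05 in the pair and 38.3, 276 and 364 in the other group, with 0 of 6 called and a median log2 fold change of 2.51. Of 14 erythroblast genes, 13 were above the pair in PBS replicate 1 and 13, 14 and 14 in AF-PTK replicates 1 to 3. Their sum was 192 CPM, then 67.8 and 65.9, against 169, 2323 and 1056, again with 0 called, beside 8.83% of all genes. Without PBS replicate 1, 4 of the 6 neutrophil precursor genes and 9 of the 14 erythroblast genes were called higher, beside 7.37% of all genes and with p-values that are too small because PBS is then the near-identical pair. The 12 late neutrophil granule genes summed to 1.78 times the pair in PBS replicate 1. In AF-PTK replicates 1 to 3 the sum was 0.470, 2.64 and 3.39 times the pair. Mmp9 and Lcn2 held most of the sum in the pair and were lower in each AF-PTK replicate. Mmp9 stood at 835 and 843 CPM in the pair against 301, 348 and 287, and Lcn2 at 283 and 288 against 10.1, 83.4 and 108. By gene, 11 of the 12 were above the pair in PBS replicate 1 and 7, 9 and 9 in AF-PTK replicates 1 to 3. The median log2 differences from the pair were 2.46, 0.49, 3.82 and 4.29 in the same order. The 11 megakaryocyte and platelet genes summed to 1.76 times the pair in PBS replicate 1. In AF-PTK replicates 1 to 3 the sum was 0.472, 1.04 and 0.832 times the pair. Itgb3 and Pf4 held most of the sum in the pair and were lower in each AF-PTK replicate. By gene, 10 of the 11 were above the pair in PBS replicate 1 and 6, 8 and 8 in AF-PTK replicates 1 to 3. The median log2 differences from the pair were 0.98, 0.28, 2.64 and 2.53 in the same order. All 6 adipocyte genes were above the pair in every other library, with a sum 5.43 times the pair in PBS replicate 1 and 8.78 to 19.0 times in the other group. The sum of the 7 genes of the nucleus pulposus list was 2.91 times the pair in PBS replicate 1 and 5.86 to 11.9 times in the other group. Car3 had the highest level of the list in every library but the pair, and Cd24 is also on the B precursor list. Car12 went the other way, at 73.6, 73.3 and 72.7 CPM in PBS and 42.0, 26.1 and 29.9 in AF-PTK replicates 1 to 3. Of 6 tested, 2 were called higher and 1 lower, beside 8.83% of all genes. With the pair summed 0 were called, beside 2.91%. Proliferation genes, at 437 CPM in PBS replicate 1 and 289 and 283 in the pair, were 216, 921 and 644 in AF-PTK replicates 1 to 3. The part of these cells in the values of the 9 genes was not tested.

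Hemoglobin, the main transcript of circulating red cells, and bone genes were read in the same way. The 4 hemoglobin genes summed to 2303 CPM in PBS replicate 1 and to 3185 and 3282 in the pair, so that this library had 0.712 times the hemoglobin of the pair while its 9 B lineage genes summed to 11.9 times theirs. AF-PTK replicate 1 likewise had 0.761 times the hemoglobin and 5.19 times the sum of the 9 genes, whereas AF-PTK replicates 2 and 3 had 6.01 and 4.24 times the hemoglobin and 14.9 and 25.2 times the 9 genes. The erythroblast genes summed to 2.87 times the pair in PBS replicate 1 and 2.53, 34.7 and 15.8 times in AF-PTK replicates 1 to 3. Erythroblasts also carry hemoglobin, so its reads from blood and from marrow cannot be told apart here. Hba-a1 alone was 2053, 2831 and 2887 CPM in PBS and 2203, 17514 and 12254 in the other group (edgeR adjusted p = 0.0911). Of 10 osteoblast and bone genes, 9 were above the pair in PBS replicate 1 and 8, 9 and 7 in AF-PTK replicates 1 to 3, with median log2 differences of 1.85, 0.87, 1.29 and 0.54. Of 8 osteoclast genes, 6 were called lower, and 4 with the PBS pair summed, when Ocstamp and Tnfrsf11a were not called (edgeR adjusted p = 0.0554 and 0.0691). Over all genes, 695 of 15042 were called lower, and 314 of 15537 with the pair summed. The part of blood, marrow and bone in the values of the 9 genes was not tested.

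**Figure D4:**
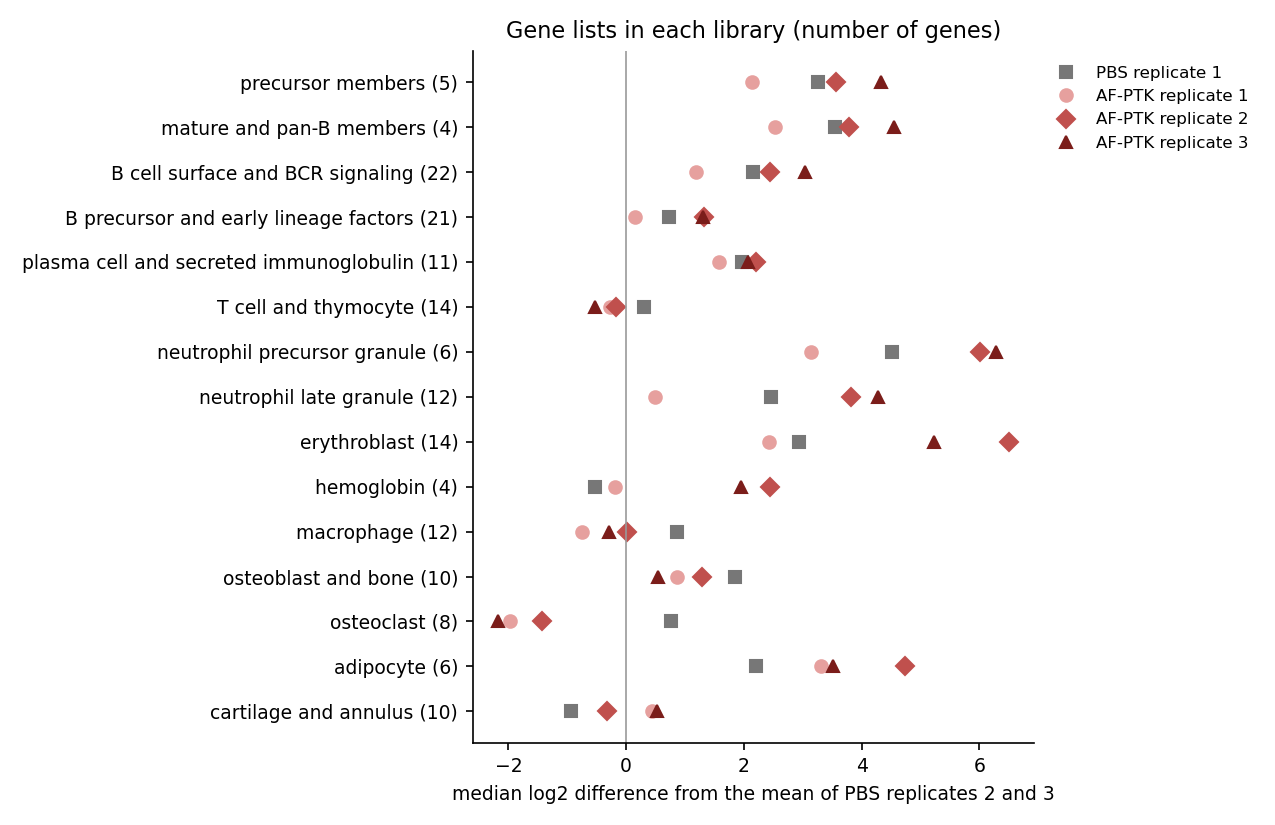
Median log2 difference of the genes in each list (x axis) from the mean of PBS replicates 2 and 3, for PBS replicate 1 (grey squares) and AF-PTK replicates 1 to 3 (red circles, diamonds and triangles), with the number of genes in brackets. PBS replicate 1 is at 3.25 for the precursor genes, 4.52 for neutrophil precursor granules and -0.52 for hemoglobin, and AF-PTK replicate 3 at 4.33, 6.28 and 1.96.

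Across all genes, the closest match to the 9 genes was sought by the Pearson correlation of log2 CPM with their summed level over the 6 libraries, of which 5 are distinct. Among 14135 genes, the 5 closest were RatNP-3b (r = 0.998), Spib (0.995), Np4 (0.994), ENSRNOG00000062540 (0.994) and Ctsg (0.992). RatNP-3b and Np4 are neutrophil defensins and Ctsg a protease of neutrophil precursor granules, whereas Spib is a transcription factor of B cells and plasmacytoid dendritic cells. RatNP-3b stood at 81.8 CPM in PBS replicate 1, 1.93 and 1.65 in the pair and 23.2, 172 and 317 in AF-PTK replicates 1 to 3. Spib stood at 17.4, then 0.450 and 0.549, against 4.65, 16.9 and 30.3. A value of 0.99 or more was reached by 9 genes and 0.95 or more by 188. These correlations describe 6 libraries that share depth and composition and carry no test.

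Genes of the marrow stroma that supports B precursors did not vary as 1 group. Of 7 measured, 1 was called higher and 1 lower, beside 8.83% of all genes called, and the median log2 fold change was 0.70. Ebf3, a transcription factor on the list, was higher but missed the call by its log2 fold change of 0.70 alone. Its edgeR adjusted p was 0.00614, and 0.0414 with the PBS pair summed. Il7, the cytokine that pre-B cells need, fell by 2.41 on the log2 scale, from 9.30, 13.96 and 12.2 CPM in PBS to 2.12, 2.53 and 1.995 in AF-PTK replicates 1 to 3 (edgeR adjusted p = 0.00283). Lepr, the leptin receptor of marrow stroma, rose from 18.6, 8.17 and 8.67 CPM to 57.6, 65.6 and 73.2 (log2 fold change 2.46, edgeR adjusted p = 0.00867). Cxcl12, the chemokine that holds B precursors in marrow and that disc stroma may also make, stood at 326 CPM in PBS replicate 1, 64.4 and 67.2 in the pair and 463, 668 and 478 in the other group (log2 fold change 1.81, edgeR adjusted p = 0.110). The groups did not overlap for Il7, Lepr, Cxcl12 or Ebf3, as for 42.3% of all genes in either direction. The calls of Il7 and Lepr held with the PBS pair summed (edgeR adjusted p = 0.0221 for Il7 and 0.0443 for Lepr), beside 2.91% of all genes called.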

How the data were processed

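Bulk RNA-seq counts of 6 rat disc libraries were read from the table the authors deposited, which holds raw whole-number counts of reads per Ensembl rat gene, with no normalization. Per the labels, the submitters' processing notes name FastQC, Trimmomatic, HISAT2, featureCounts, DESeq2 and mm10, a mouse build, in no order. The build of the table's coordinates and the use of strand are not given in the sources used here. Table columns were matched to the 2 groups by name. The 9 genes and the 21 marker lists were chosen with earlier results of these data known.

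Counts were normalized with the trimmed mean of M-values, filtered with filterByExpr (minimum count 10) and tested on all genes with the quasi-likelihood test of edgeR 4.0.16 in R 4.3.3, with Benjamini-Hochberg adjustment over 15042 genes. A call needed an adjusted p under 0.05 and a log2 fold change beyond 1 in either direction. Log2 CPM used a prior count of 2. Library totals were 15560728 to 17942989, and intervals of counts and shares (Poisson and Clopper-Pearson, 95%) cover counting error only. Single values were compared by two-sided exact permutation tests (scipy 1.17.1) over distinct samples, in which the smaller one-sided p is doubled. The genes named are all 9, of each list at most 4 or those called (all 6 of the neutrophil precursor list), the immunoglobulin genes by name and the 5 most correlated genes whose mean log2 CPM was 0 or more. Several genes in the text (Cd74, Vpreb2, Vpreb3, Fcrl1, Myb, Ebf1, Il7r, Cd7, Ptcra, Cxcl12, Ebf3, Mmp9, Lcn2, Itgb3, Pf4, Car3 and Car12) were picked from their lists with values in view. The edgeR steps were tested on simulated data. Alternatives were DESeq2 1.42.0, limma-voom (limma 3.58.1), other normalizations, filters and thresholds, robust dispersion, a block for the replicate number, the PBS pair summed and each library left out. No transcript length was given, so levels were not compared between genes. Some listed genes are not reported here.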

Additional observations from a re-analysis of the deposited data

How the results depend on the processing

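No member was called in edgeR's fit of the 6 libraries, and the number called was 0 in every alternative but DESeq2 (2) and the fits that leave out 1 library, which gave 0 to 8. The 8 came without PBS replicate 1, and 1 (Vpreb1) without AF-PTK@LEV@SPP1 replicate 1. The fold change of Rag2 reversed to -1.08 without AF-PTK@LEV@SPP1 replicate 3, and those of the other 8 genes stayed positive in all their alternatives. The cause was not tested. Rag2 stayed uncalled without PBS replicate 1 (log2 fold change 3.06). Of the list of B cell surface genes, 0 were called in the 6 libraries, 1 with limma-voom, 2 with DESeq2 and 12 without PBS replicate 1, and of the list of precursor factors (Cd79a and Cd79b included) 4, 9 without that library, 2 with the pair summed or without PBS replicate 2 or 3, and 0 with glmTreat. With the replicate number as a block (replicate block), 0 members were called and 600 genes in all, and the log2 fold change of Vpreb1 was 3.20 (edgeR adjusted p = 0.200). Libraries with the same number did not deviate together (r = -0.326, -0.282 and -0.0756), so the numbers were not taken as pairs. The count of all genes called moved from 1328 to 196 with glmTreat, 452 with the PBS pair summed, 443 and 449 without PBS replicates 2 and 3, 703 without AF-PTK@LEV@SPP1 replicate 3 and 2016 without PBS replicate 1. With a minimum count of 30, Vpreb1 and Rag2 were not tested. At 0 to 11 reads, the levels of all 9 genes but Cd79a in the PBS pair carry wide counting error, and 9 of the counts of a gene in a library were at or under the floor of 3.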
